A study of Mus musculus with 14 samples.

Results

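The circadian clock genes described here are Per1, Per2, Per3, Arntl, Clock, Npas2, Nr1d1, Nr1d2, Dbp and Ciart, chosen by gene symbol and not by their values. They are 10 of the 24411 gene symbols in the count files, and all 10 passed the filter on low counts that left 14300 genes for testing. The study sequenced RNA of whole kidneys from male C57/B6 mice of 8 weeks at day 0 (n = 4), and at day 1 (n = 5) and day 3 (n = 5) after ischemia/reperfusion injury (IRI), in which blood flow to the kidney is interrupted and restored. No transgene or knockdown is named for these mice, and neither the labels nor the methods state whether the day 0 kidneys were sham-operated. The labels number the libraries within a day but do not say that each came from a separate mouse, so p-values measure the spread between libraries. The hour of the day at which kidneys were collected is not given in the sources used here, so a difference in clock phase and a response to injury cannot be told apart in any comparison with day 0.

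In the mammalian clock, the transcription factors ARNTL (also called BMAL1) and CLOCK, or its paralog NPAS2, bind E-box elements and switch on the Per genes, Nr1d1, Nr1d2, Dbp and Ciart. PER proteins, with their CRY partners, and CIART then repress ARNTL and CLOCK, while NR1D1 and NR1D2 (REV-ERB alpha and beta) repress Arntl, Clock and Npas2 through ROR elements (ROREs). As a result Arntl, Clock and Npas2 peak at about the opposite time of day from Nr1d1 and Dbp in peripheral mouse tissues, the kidney included, where the clock times salt and water transport. Per1 is also an immediate early gene and a glucocorticoid target, and it can rise without a change of phase.

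The libraries carry a second grouping besides the day. The number in the file name has 1 digit for all 4 day 0 libraries, for day 1 replicates 3, 4 and 5 and for day 3 replicates 4 and 5. It has 3 digits for day 1 replicates 1 and 2 and for day 3 replicates 1, 2 and 3. Neither the labels nor the methods say what this number format marks, and it is used below only as a possible technical split, called 1-digit and 3-digit. Since day 0 holds only 1-digit replicates, day and format cannot be told apart where 3-digit replicates are compared with day 0. Over the 14 libraries, 12485579 to 20476979 reads lay on genes (median 17147263), and 98.5% to 98.7% of strand-assigned reads lay on the strand used. All 7 kidney markers were detected at day 0, among them Umod of the thick ascending limb at 5770 ± 997 CPM and Nphs1 of the podocyte at 21.5 ± 3.49 CPM (SD, n = 4). CPM is the read count of a gene scaled to the size of the library, after TMM normalization. These are whole-tissue libraries, in which fewer cells of a type and less RNA per cell cannot be told apart. Day 3 replicate 2 stood apart from the other day 3 libraries in Clock and Npas2, and calls of members that changed without it are given beside the results.

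Promoter windows were available from RefSeq (GRCm38.p6) for 9 of the 10 genes, Per2 being the one with no entry, with 250 bases before and 50 bases after each annotated start. They were searched on both strands for the E-box CACGTG, the D-box TTATGTAA or TTACGTAA (bound by DBP), the cAMP response element TGACGTCA and the RORE. The RORE, given here by its name, is longer and ends in GGTCA after a stretch that is mostly A and T. The 4 windows shown here are those that held a match, and the capitals mark it.
Ciart (chr3:95882179-95882478, minus strand), with 3 E-boxes that begin 116, 58 and 44 bases before the start: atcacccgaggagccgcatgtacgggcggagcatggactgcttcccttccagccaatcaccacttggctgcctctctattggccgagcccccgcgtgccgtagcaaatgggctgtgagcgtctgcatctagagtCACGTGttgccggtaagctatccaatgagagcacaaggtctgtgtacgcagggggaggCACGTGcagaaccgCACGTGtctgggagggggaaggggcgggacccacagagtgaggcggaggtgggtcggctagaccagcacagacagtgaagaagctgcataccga
Per1, first window (chr11:69098699-69098998, plus strand), with 1 E-box 166 bases before the start: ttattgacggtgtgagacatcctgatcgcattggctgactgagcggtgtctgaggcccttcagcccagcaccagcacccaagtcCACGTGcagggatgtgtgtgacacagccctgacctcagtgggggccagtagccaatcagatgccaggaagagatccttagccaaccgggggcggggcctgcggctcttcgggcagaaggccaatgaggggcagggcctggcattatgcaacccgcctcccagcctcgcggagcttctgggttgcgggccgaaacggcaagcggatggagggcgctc
Per3 (chr4:151044616-151044915, minus strand), with 2 D-boxes 205 and 158 bases before the start: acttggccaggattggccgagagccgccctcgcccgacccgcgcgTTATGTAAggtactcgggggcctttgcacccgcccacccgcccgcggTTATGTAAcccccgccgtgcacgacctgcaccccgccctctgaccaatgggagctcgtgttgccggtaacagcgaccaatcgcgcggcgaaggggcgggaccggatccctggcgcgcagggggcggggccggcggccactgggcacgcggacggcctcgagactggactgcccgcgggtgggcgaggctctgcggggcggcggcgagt
Arntl, second window (chr7:113207261-113207560, plus strand), with 1 RORE at bases 27 to 37 of the transcript: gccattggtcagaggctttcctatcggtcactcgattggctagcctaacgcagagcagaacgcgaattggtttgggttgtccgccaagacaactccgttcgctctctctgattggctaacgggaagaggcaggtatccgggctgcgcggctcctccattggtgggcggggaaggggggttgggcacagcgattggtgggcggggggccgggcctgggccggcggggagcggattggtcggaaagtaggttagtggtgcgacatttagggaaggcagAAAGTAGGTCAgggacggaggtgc
Over all 32851 promoter windows of the same length, 7.15% held the E-box, 1.06% the D-box, 0.384% the RORE and 1.79% the cAMP response element. No other window of a member, those of Nr1d1, Nr1d2, Dbp, Clock and Npas2 included, held an exact match, and none held the cAMP response element. A match is a description of the sequence and not of binding.

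On the gene models of GENCODE vM21 (GRCm38) the members lie on 7 chromosomes. Nr1d1 (chromosome 11, 98767932 to 98775333, minus strand) shares 263 exon bases with Thra on the other strand. Dbp (chromosome 7, 45705088 to 45710203, plus strand) shares 539 exon bases with Sphk2 on the other strand. Counting by strand kept these reads apart. Ignoring the strand gave 38.5% to 60.8% of the stranded count for Dbp, and 101% to 234% for Nr1d1.

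At day 0, per kilobase of exon, Nr1d2 was the most abundant member at 13.6 CPM per kilobase (8.63 to 17.4), followed by Per2 at 10.2 (9.49 to 11.7). The ranges of these neighbours overlapped. Per1 followed at 7.42, Clock at 6.18, Dbp at 5.01, Arntl at 3.15, Per3 at 1.84, Npas2 at 1.62, Nr1d1 at 1.55 and Ciart at 0.54 CPM per kilobase. Of the other neighbours, Per2 and Per1, Arntl and Per3, and Nr1d1 and Ciart did not overlap between libraries, Dbp and Arntl overlapped by a narrow margin, and the remaining neighbours overlapped. In the 1-digit replicates of day 1, Nr1d1 stood at 126 CPM per kilobase (83.8 to 158).

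The first comparison asked how the clock genes differed between the injured kidney at day 1 and the kidney at day 0. Of the 10 members, 7 changed by edgeR's quasi-likelihood test (Benjamini-Hochberg adjusted p under 0.05). Per1, Nr1d1, Nr1d2, Dbp and Ciart rose, and Arntl and Clock fell. Over all 14300 genes tested 42.1% changed, 23.3% upward and 18.7% downward. The median log2 fold change of the members was 0.17, against 0.01 over all genes. In 5 members the day 1 libraries did not overlap those of day 0, where the same held for 42.0% of all genes.

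**Figure D1:**
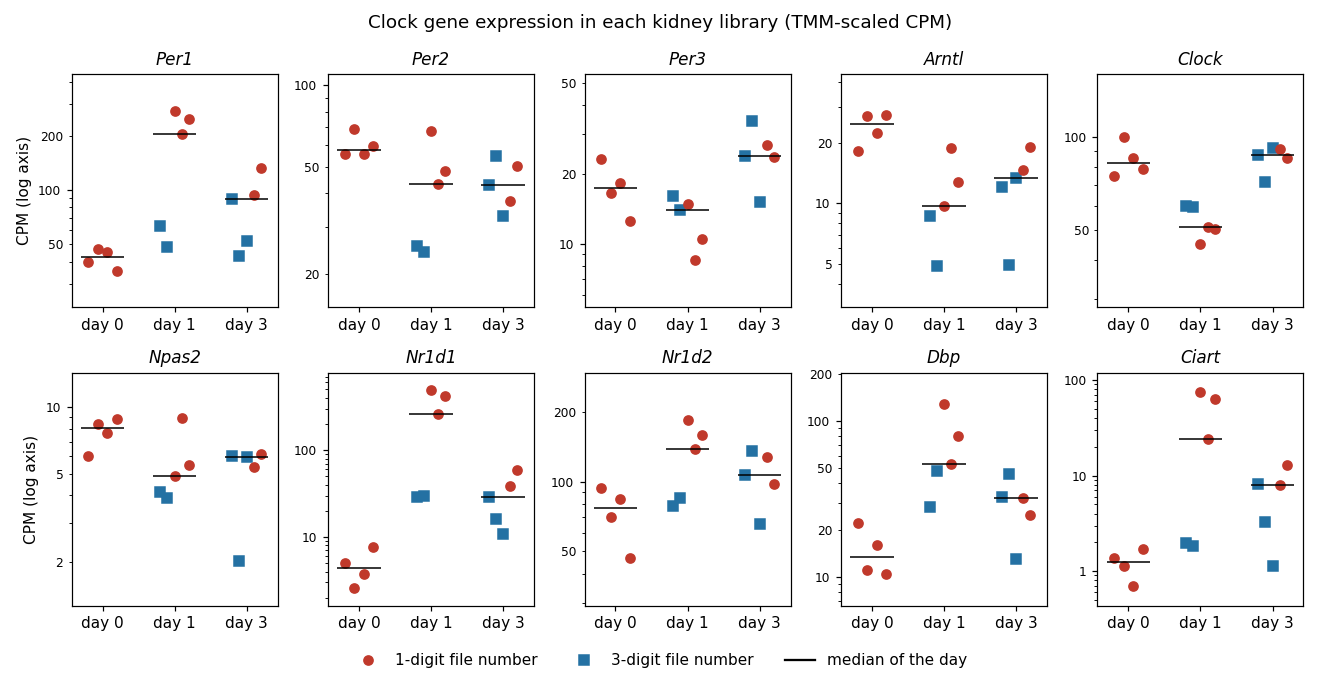
CPM of each clock gene (log axis) in every library by day. Red circles are 1-digit and blue squares 3-digit replicates, and the black line is the median of the day. At day 1 the 1-digit replicates of Nr1d1 lie between 258 and 487 CPM, and the 3-digit replicates at 29.1 and 29.4 CPM.

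Nr1d1, the nuclear receptor that represses Arntl, rose most. Its level was 5, 2.59, 3.79 and 7.74 CPM in day 0 replicates 1 to 4. At day 1 it was 29.1 and 29.4 CPM in the 3-digit replicates 1 and 2, and 487, 258 and 417 CPM in the 1-digit replicates 3, 4 and 5. At day 3 it was 28.5, 16.2 and 10.8 CPM in the 3-digit replicates 1 to 3, and 38.5 and 59.6 CPM in the 1-digit replicates 4 and 5. Every injured library lay above every day 0 library, and within each day every 1-digit library lay above every 3-digit one. Day 1 exceeded day 0 by 5.67 ± 0.94 log2 units (SE, adjusted p = 0.000489) and day 3 exceeded it by 2.68 ± 0.82 (adjusted p = 0.0228). The day 3 call was lost without day 0 replicate 1, 2 or 3 or day 3 replicate 5 (adjusted p from 0.0519 to 0.0667), and with unstranded counts (0.0541).

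Ciart, a repressor of the ARNTL and CLOCK complex, came next. It stood at 1.38, 1.12, 0.695 and 1.69 CPM in the day 0 libraries, from 11 to 28 reads. Day 1 replicates 1 and 2 (3-digit) held 1.99 and 1.82 CPM, and replicates 3, 4 and 5 (1-digit) held 74.8, 24.0 and 63.6 CPM. Day 3 replicates 1 to 3 held 8.09, 3.27 and 1.14 CPM, and replicates 4 and 5 held 7.94 and 12.9 CPM. The 3-digit replicates of day 1 therefore lay just above the day 0 range, and the 1-digit replicates far above it. Day 1 differed from day 0 by 4.75 ± 1.11 log2 units (adjusted p = 0.00415), and the difference at day 3 was 2.43 ± 1.03 (adjusted p = 0.0822). The day 3 difference was called without day 1 replicate 2 (2.43, 0.0438) and by DESeq2's Wald test (2.43, 0.0341). With the 3-digit replicates alone, the day 1 difference was 0.64 ± 0.65 (adjusted p = 0.454).

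Per1, which codes for a repressor of the loop, was tight at day 0 with 39.7, 47.1, 44.9 and 35.6 CPM. At day 1 it reached 276, 206 and 248 CPM (1-digit) and was 63.4 and 48.2 CPM (3-digit). At day 3 the 3-digit replicates 1 to 3 held 88.6, 43.1 and 52.2 CPM and the 1-digit replicates held 93.9 and 133 CPM. All day 1 libraries were above all day 0 libraries, by 2.01 ± 0.49 log2 units (adjusted p = 0.00515). The day 3 difference of 0.97 ± 0.47 was not called (adjusted p = 0.122). With the 3-digit replicates alone, the day 1 difference was 0.42 ± 0.26 (adjusted p = 0.217).

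Dbp, a transcription factor that acts through D-boxes and carries clock output, held 22.4, 11.1, 16.0 and 10.5 CPM at day 0. At day 1 it held 28.1 and 47.6 CPM (3-digit) and 128, 53.0 and 80.4 CPM (1-digit). By day 3 it held 32.7, 46.0 and 13.0 CPM (3-digit) and 32.2 and 25.0 CPM (1-digit). The day 1 libraries were all above the day 0 libraries (2.17 ± 0.44 log2 units, adjusted p = 0.0017), whereas day 3 overlapped day 0 (0.99 ± 0.42, adjusted p = 0.0817). The day 3 difference was called without day 3 replicate 3 (1.14, 0.0425), without TMM (1.12, 0.039) and with the number format as a term (1.36, 0.0317). In the 3-digit replicates alone the day 1 difference of 1.34 ± 0.45 was called (adjusted p = 0.0367).

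Nr1d2, the paralog of Nr1d1, was 94.1, 70.0, 84.1 and 46.7 CPM at day 0. It was 78.2 and 84.9 CPM (3-digit) and 184, 138 and 158 CPM (1-digit) at day 1. By day 3 it was 107, 136 and 65.9 CPM (3-digit) and 127 and 98.0 CPM (1-digit). At day 1 the 1-digit replicates lay above the day 0 range and the 3-digit replicates lay inside it, and the day 1 difference was 0.80 ± 0.29 log2 units (adjusted p = 0.0358). That call was lost without any one of day 0 replicates 2, 3 and 4 or day 1 replicates 3, 4 and 5 (adjusted p from 0.0536 to 0.108).

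Per2 and Per3, the paralogs of Per1, were called at neither day against day 0. Per2 was 55.6, 68.7, 55.7 and 59.6 CPM at day 0. At day 1 it was 25.5 and 24.2 CPM in the 3-digit replicates, below every other library, and 67.9, 43.2 and 48.1 CPM in the 1-digit replicates. In day 3 kidneys it was 42.9, 55.0 and 32.8 CPM (3-digit) and 37.3 and 50.2 CPM (1-digit), all below day 0. Neither the day 1 difference of -0.52 ± 0.26 log2 units (adjusted p = 0.119) nor the day 3 difference of -0.46 ± 0.26 (adjusted p = 0.189) was called, and without day 1 replicate 3 the day 1 difference of -0.77 was called (adjusted p = 0.0182).

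Per3 held 23.2, 16.6, 18.4 and 12.5 CPM at day 0. It held 16.1 and 14 CPM (3-digit) and 14.9, 8.46 and 10.5 CPM (1-digit) at day 1. By day 3 it held 24.1, 34.0 and 15.1 CPM (3-digit) and 26.9 and 23.7 CPM (1-digit). The ranges of the 3 days overlapped. Its difference from day 0 was -0.47 ± 0.25 log2 units at day 1 (adjusted p = 0.14) and 0.49 ± 0.25 at day 3 (adjusted p = 0.144), and day 3 exceeded day 1 by 0.95 ± 0.24 (adjusted p = 0.0166).

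Of the 3 activators, Arntl and Clock fell at day 1 and Npas2 was not called. Arntl was 18.2, 27.1, 22.4 and 27.2 CPM at day 0. At day 1 it was 8.68 and 4.91 CPM (3-digit) and 9.68, 18.7 and 12.7 CPM (1-digit). In day 3 kidneys it was 12.1, 4.96 and 13.4 CPM (3-digit) and 14.6 and 19.0 CPM (1-digit). The lowest 2 values were those of day 1 replicate 2 and day 3 replicate 2, and 1 library of each injured day reached into the day 0 range. Arntl fell by 1.12 log2 units at day 1 (SE 0.36, adjusted p = 0.0234), a call lost without day 0 replicate 2 or 4 (0.059 and 0.0572). The day 3 difference was -0.89 ± 0.36 (adjusted p = 0.0707), and it was called without day 1 replicate 2 (0.0418).

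Clock, the partner of ARNTL, stood at 75.2, 99.9, 85.5 and 79.2 CPM at day 0. At day 1 it was 60.2 and 59.7 CPM (3-digit) and 45.2, 51.4 and 50.6 CPM (1-digit), all below day 0. In day 3 kidneys it was 87.4, 71.7 and 92.0 CPM (3-digit) and 91.3 and 85.9 CPM (1-digit), which overlapped day 0. It fell by 0.67 log2 units at day 1 (SE 0.13, adjusted p = 0.00112), and differed from day 0 by 0.01 ± 0.13 at day 3 (adjusted p = 0.946). Day 3 exceeded day 1 by 0.68 ± 0.12 (adjusted p = 0.00397), without overlap.

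Npas2, which can stand in for CLOCK, was scarce throughout. It was 6.04, 8.42, 7.64 and 8.89 CPM at day 0, 4.15 and 3.91 CPM (3-digit) and 4.91, 8.97 and 5.47 CPM (1-digit) at day 1. Its day 3 levels were 6.01, 2.03 and 5.94 CPM (3-digit) and 5.38 and 6.17 CPM (1-digit). The ranges overlapped, and neither the difference at day 1 (-0.50 ± 0.32 log2 units, adjusted p = 0.219) nor that at day 3 (-0.60 ± 0.32, adjusted p = 0.159) was called.

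At day 3, 1 of the 10 members differed from day 0, the higher Nr1d1, where 33.3% of all genes did (19.5% higher and 13.8% lower). The libraries of 2 members, Nr1d1 and Per2, did not overlap, against 33.4% of all genes. Between day 3 and day 1, 3 members differed, with Per3 and Clock higher and Nr1d1 lower by 2.99 log2 units (SE 0.74, adjusted p = 0.0171). The Nr1d1 call was lost with only the libraries compared (adjusted p = 0.0508), and with only 3-digit replicates of days 1 and 3 the difference was -0.66 (0.328). Dbp, at -1.18 ± 0.39 (adjusted p = 0.0526), was called at -1.39 without day 3 replicate 2 (0.0363). Over all genes 15.9% differed, 8.52% higher and 7.39% lower. Clock alone among the members did not overlap, against 7.61% of all genes. Without day 1 replicate 1 or without day 1 replicate 2, the count of members rose to 6.

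The next comparison asked whether the clock genes differed between the 1-digit and 3-digit replicates of the same day. At day 1, Per1, Per2, Nr1d1, Nr1d2 and Ciart were lower in the 3-digit replicates and no member was called higher. None was higher at an unadjusted p under 0.05 or by DESeq2, which called 7 lower, beside 5484 of all 14300 genes in either direction. With total counts in place of TMM, Clock was called higher in the 3-digit replicates (0.50 log2 units, adjusted p = 0.0221). The 5 of 10 called by edgeR stand beside 35.0% of all genes, 18.6% higher and 16.4% lower. The median of the members was -1.06 log2 units, against 0.03 over all genes. In 9 members, all but Per3, the 2 sets of libraries did not overlap, where 60.7% of all genes did not. The design was 2 against 3 libraries.

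Ciart differed by -4.82 ± 0.73 log2 units between the formats at day 1 (adjusted p = 0.000604), a ratio of 28.3 in favour of the 1-digit replicates. Nr1d1 differed by -3.73 ± 0.48 (adjusted p = 0.000274), Per1 by -2.12 ± 0.29 (0.000359), Per2 by -1.10 ± 0.24 (0.00394) and Nr1d2 by -0.97 ± 0.30 (0.0253) in the same edgeR test. The Nr1d2 call was lost without day 1 replicate 1, 2 or 3 (0.116, 0.112 and 0.0657). Dbp differed by -1.20 ± 0.49 (adjusted p = 0.0732) and Arntl by -1.02 ± 0.40 (0.0643), neither of them called, though the 2 formats did not overlap in either. The Arntl difference was called without day 1 replicate 3 (-1.22, 0.0445) or day 3 replicate 2 (-1.02, 0.0206), and that of Dbp without day 1 replicate 4 (-1.46, 0.0492) or day 3 replicate 3 (-1.21, 0.0359) and with only the libraries compared (-1.18, 0.039). DESeq2 called both (0.0281 for Arntl and 0.0261 for Dbp). Npas2 differed by -0.68 ± 0.40 (adjusted p = 0.201), Clock by 0.29 ± 0.15 (0.137) and Per3 by 0.41 ± 0.33 (0.34).

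At day 3 the 3-digit replicates were lower in 2 of 10 members, Nr1d1 by 1.41 log2 units (SE 0.41, adjusted p = 0.0334) and Per1 by 0.89 (SE 0.26, adjusted p = 0.0357). Over all genes 18.5% differed, 10.3% higher and 8.22% lower. The formats did not overlap in 3 members, Per1, Arntl and Nr1d1, against 41.4% of all genes. Both calls were lost without day 3 replicate 2, 3 or 5 (adjusted p from 0.0903 to 0.229 for Nr1d1, and from 0.104 to 0.269 for Per1). With only the day 3 libraries in the fit both were lost too (0.123 for Nr1d1 and 0.181 for Per1). The Per1 call was also lost without day 0 replicate 1 (0.0511) or 3 (0.0505). Ciart, not called at -1.32 ± 0.60 (adjusted p = 0.131), was called at -2.26 without day 3 replicate 1 (0.0105). Dbp (0.10 ± 0.48), Per2 (-0.01 ± 0.23), Per3 (-0.05 ± 0.32) and Clock (-0.08 ± 0.15) differed by less than their errors.

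The format effect itself differed between the 2 days in 4 members, beside 17.6% of all genes. The 3-digit replicates were less far below the 1-digit replicates at day 3 than at day 1, by 3.50 ± 0.91 log2 units for Ciart (adjusted p = 0.0193) and 2.32 ± 0.61 for Nr1d1 (0.0195). The same difference was 1.24 ± 0.38 for Per1 (0.0408) and 1.09 ± 0.33 for Per2 (0.0356). For Dbp it was 1.29 ± 0.69 (0.209) and for Arntl 0.29 ± 0.55 (0.752). The count fell from 4 to 0 without day 1 replicate 1, without day 1 replicate 2, or without day 3 replicate 4. The Per1 call was also lost without day 0 replicate 1, 2 or 3 or day 1 replicate 3 or 5 (adjusted p from 0.0538 to 0.0807). The Per2 call was also lost without day 0 replicate 3 (0.0502), day 1 replicate 3 (0.071) or day 3 replicate 2 (0.89 log2 units, 0.0651). Both were lost with total counts in place of TMM (0.0574 and 0.0619).

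**Figure D2:**
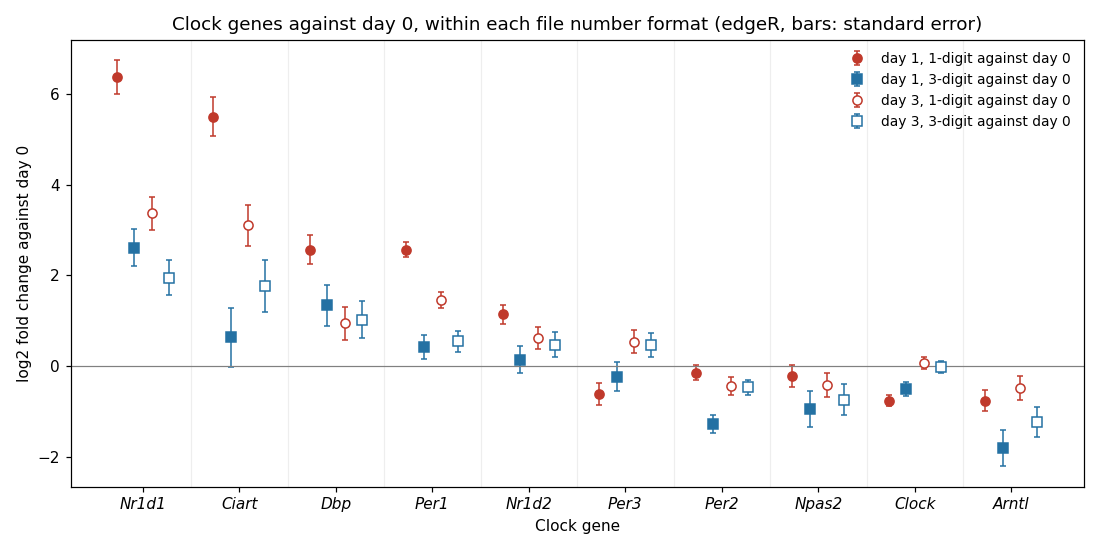
Log2 fold change against the 4 day 0 libraries for each clock gene, by day and number format (edgeR estimates, bars are 1 SE; filled symbols day 1, open symbols day 3, red circles 1-digit, blue squares 3-digit). Nr1d1 stands at 6.37 in the 1-digit and 2.61 in the 3-digit replicates of day 1, and Arntl below 0 in all 4.

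Within the 1-digit replicates, where day 0 has its own format, 8 members differed between day 1 and day 0, with 5 higher and 3 lower. Of all genes 61.3% did, 31.5% higher and 29.8% lower. Nr1d1 rose by 6.37 ± 0.37 log2 units (adjusted p = 1.38e-06), Ciart by 5.49 ± 0.43 (4.83e-06), Per1 by 2.57 ± 0.16 (1.87e-06), Dbp by 2.57 ± 0.32 (8.05e-05) and Nr1d2 by 1.15 ± 0.21 (0.000953). Clock and Arntl both fell by 0.76 log2 units (0.000331 and 0.0152), and Per3, whose ranges overlapped, fell by 0.61 (0.0425). At day 3 the same 5 genes of the first group were higher than at day 0 and no member was lower, where 56.3% of all genes differed, 30.5% higher and 25.8% lower. Nr1d1 was higher by 3.37 ± 0.36 (4.31e-05) and Ciart by 3.10 ± 0.46 (0.000322), and Arntl differed by -0.48 ± 0.26 (0.137). From day 1 to day 3, 6 members differed, with Per3 and Clock higher and Per1, Nr1d1, Dbp and Ciart lower, where 36.0% of all genes did, 17.9% higher and 18.1% lower.

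The 3-digit replicates gave a different set. At day 1, Nr1d1 (2.61 ± 0.41 log2 units, adjusted p = 0.0011) and Dbp (1.34 ± 0.45, 0.0367) were higher than at day 0. Arntl fell by 1.80 (SE 0.40, adjusted p = 0.00629), Per2 by 1.27 (SE 0.20, 0.000974) and Clock by 0.50 (SE 0.15, 0.0213). These are 5 of 10 members, beside 42.9% of all genes, 22.9% higher and 20.0% lower. At day 3, Nr1d1 (1.95 ± 0.38, 0.00451) and Ciart (1.76 ± 0.57, 0.038) were higher and Arntl was lower by 1.22 (SE 0.33, 0.0197), beside 34.0% of all genes, 19.3% higher and 14.7% lower. From day 1 to day 3 only Per2 was called, higher by 0.81 ± 0.20 (0.0256), beside 16.0% of all genes, 8.46% higher and 7.54% lower. The formats share the day 0 libraries, and the direct comparison of the formats above is the test of their difference.

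To set the activators beside their targets in each library, the mean log2 CPM (prior count 2) of the positive arm (Arntl, Clock and Npas2) was set against that of the E-box arm (Nr1d1, Nr1d2, Dbp, Per3 and Ciart). The arms are named from general knowledge of the loop and not from the motif matches above, and they leave out Per1 and Per2. Per3 did not follow the rest of its arm over the 14 libraries, with r = -0.40 with Nr1d1, -0.27 with Ciart, -0.15 with Dbp and 0.06 with Nr1d2. After the mean of each day was removed these were -0.22, -0.12, 0.48 and 0.38, so that Per3 then went with Dbp and Nr1d2 in part. The contrast is a description with no test, and its zero point depends on the abundance of the genes taken and has no meaning of its own. The positive arm minus the E-box arm was 0.64, 1.75, 1.37 and 1.46 in day 0 replicates 1 to 4. It was -3.01, -1.34 and -2.40 in the 1-digit and -0.50 and -0.91 in the 3-digit replicates of day 1. At day 3 it was -0.72 and -0.64 in the 1-digit replicates, and -0.63, -1.49 and 0.80 in the 3-digit replicates 1 to 3. Day 3 replicate 3 lay within the day 0 range, and the other 9 injured libraries lay below it. The mean of the 3-digit day 3 libraries, -0.44 ± 1.16 (SD, n = 3), became 0.08 without day 3 replicate 2.

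**Figure D3:**
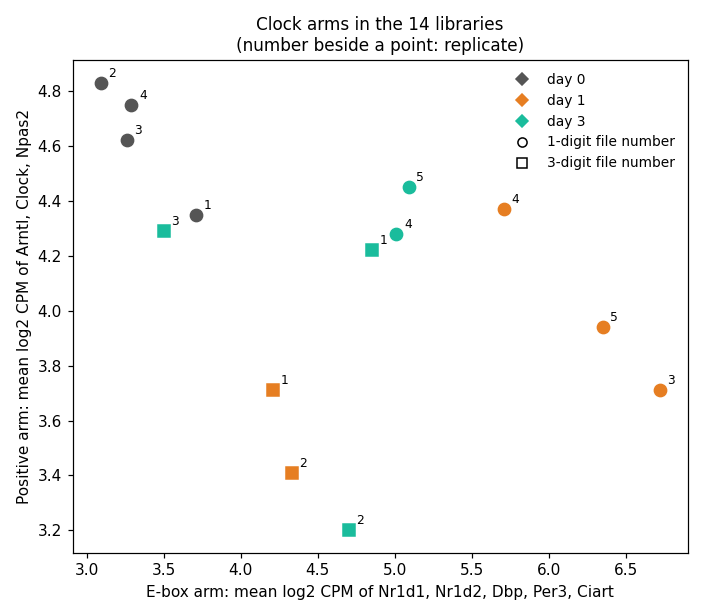
Positive arm (mean log2 CPM of Arntl, Clock and Npas2) against the E-box arm (mean log2 CPM of Nr1d1, Nr1d2, Dbp, Per3 and Ciart), 1 point per library, coloured by day, circles for 1-digit and squares for 3-digit replicates, with the replicate number beside it. Day 0 lies at the upper left, the 1-digit replicates of day 1 at the right, and the 3-digit replicates of day 1 lower and further left.

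The arms were also set side by side for the formats at day 1. The E-box arm was 5.71 to 6.72 in the 1-digit and 4.21 to 4.33 in the 3-digit replicates. The positive arm was 3.71 to 4.37 in the 1-digit and 3.41 to 3.71 in the 3-digit replicates, so that the ranges met. Its members differed, since Clock alone of the 3 was above the 1-digit replicates in both 3-digit replicates, while Arntl and Npas2 were below them. Against day 0, with an E-box arm of 3.09 to 3.71 and a positive arm of 4.35 to 4.83, both formats of day 1 had a higher E-box arm. Their positive arm was lower except in day 1 replicate 4 at 4.37, inside the day 0 range. Arntl minus Dbp, the simplest contrast of the arms, was -3.71, -1.5 and -2.65 in the 1-digit and -1.68 and -3.25 in the 3-digit replicates of day 1, so that the formats overlapped. It was -0.30, 1.28, 0.48 and 1.37 at day 0. Whether the libraries differ in clock phase was not tested, since no collection time is given.

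Of all pairs of members, those with the 5 highest values and the lowest value of Pearson's r of log2 CPM over the 14 libraries are given as a description, with days and formats shared by the points. The highest were 0.96 for Per1 and Ciart, 0.94 for Nr1d1 and Ciart, 0.93 for Per1 and Nr1d1, 0.91 for Arntl and Npas2 and 0.90 for Nr1d2 and Dbp. After the mean of each day was removed these were 0.93, 0.97, 0.91, 0.92 and 0.91. The lowest was -0.83 for Clock and Dbp, and -0.75 within days. In the 4 day 0 libraries alone, too few for a correlation, Per1 and Nr1d1 stood in opposite order.

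Among 13316 other genes with a mean of at least 1 CPM, those most like Arntl over the 14 libraries were Spire1 (r = 0.935), Cry1 (0.872), Rap1gap2 (0.857), Mfsd4 (0.843) and Kat2b (0.843). Cry1, a core repressor of the clock, averaged 26.6 CPM at day 0, and 22.3 CPM (1-digit) and 14.8 CPM (3-digit) at day 1. Those most like Dbp were Ccdc9 (0.904), Eif3k (0.903), Pabpc4 (0.902), Ewsr1 (0.891) and Pfdn2 (0.891). No member of the clock lists is among the latter 5.

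Of 17 further clock genes (core partners and regulators), 16 were tested, Rorb being below the filter. At day 1, 4 rose and 3 fell (median 0.17 log2 units, as for the members), beside 42.1% of all genes. With only 1-digit replicates 9 rose and 5 fell (median 0.49), beside 61.3% of all genes, and with only 3-digit replicates of days 1 and 3 it was 3 and 7 (median -0.39), beside 42.9%. Bhlhe40, an E-box repressor, rose by 1.59 ± 0.29 (adjusted p = 0.000959), and Tef, a relative of Dbp, fell by 0.68 (SE 0.18, adjusted p = 0.0078), as did Hlf by 1.83 (SE 0.32, 0.000766). Tef and Hlf belong to the same PAR bZIP family as Dbp, which rose. At day 3, where 33.3% of all genes changed, 1 rose and 3 fell, the one that rose being Csnk1e (1.57 ± 0.36, 0.00515), a kinase that acts on PER proteins. From day 1 to day 3, 2 rose, among them Tef (0.77 ± 0.17, 0.0105), and 4 fell, beside 15.9% of all genes.

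Between the formats, 9 of these 16 genes were lower and 1 was higher in the 3-digit replicates of day 1 (median -0.58 log2 units), beside 35.0% of all genes. The higher one was Arntl2, the paralog of Arntl (1.06 ± 0.29, adjusted p = 0.0126), at 9.45 and 10.5 CPM against 4.17 to 5.23 CPM. Cry2 and Bhlhe41, named here after their values were seen, differed by -2.42 ± 0.35 (0.000511) and -3.08 ± 0.46 (0.000544). Cry2 was 94.8 to 142 CPM (1-digit) and 16.5 to 25.6 CPM (3-digit), and 28.7 to 37.4 CPM at day 0. At day 3, 4 of the 16 were lower in the 3-digit replicates, beside 18.5% of all genes, and the format effect differed between days in 2, beside 17.6%.

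Of 9 clock output genes, 8 were matched and tested. At day 1, beside 42.1% of all genes, 3 fell, among them Wnk1, a kinase of renal salt transport (-1.04 ± 0.17 log2 units, adjusted p = 0.000463). The 2 that rose were Wee1, a mitotic kinase (0.83 ± 0.16, 0.00115), and Edn1, endothelin 1 (3.16 ± 0.34, 2.48e-05). At day 3, 2 rose and 2 fell, beside 33.3% of all genes, and from day 1 to day 3 edgeR called 0 of the 8 (2 at an unadjusted p under 0.05, and 1 by DESeq2), where 15.9% of all genes were called. Between the formats at day 1, where 16.4% of all genes were lower and 18.6% higher, 3 were lower and 2 higher in the 3-digit replicates, the latter Nampt, an enzyme of NAD synthesis (0.92 ± 0.27, 0.0188), and Slc6a9, a glycine transporter (1.19 ± 0.18, 0.000576). Between the formats at day 3 edgeR called 0 of the 8 (1 unadjusted, and 1 by DESeq2), beside 18.5% of all genes, and the format effect differed between days in 4, beside 17.6%.

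The immediate early genes, a kind to which Per1 also belongs, are given beside it. All 14 rose at day 1 (median 3.70 log2 units, beside 23.3% of all genes that rose), as did Per1. At day 3, 9 rose (beside 19.5%), and 13 fell from day 1 to day 3 (beside 7.39%), and Per1 was called in neither (adjusted p = 0.122 and 0.118). With only 3-digit replicates of days 1 and 3, 11 of the 14 rose at day 1 (beside 22.9%), where Per1 was not called. Between the formats at day 1, where 16.4% of all genes were lower and 18.6% higher, 12 were lower and 1, Egr2, was higher (1.28 ± 0.43, adjusted p = 0.0344) in the 3-digit replicates, with a median of -2.04. Klf6 differed by -1.90 ± 0.18 (8.73e-05) and Jun by -2.87 ± 0.42 (0.000522). The summed level of the 14 genes was 266 to 321 CPM at day 0, 3080 to 4800 CPM (1-digit) and 730 to 1020 CPM (3-digit) at day 1. At day 3 it was 673 to 1010 CPM (1-digit) and 436 to 766 CPM (3-digit), 3 genes being lower in the latter, beside 8.22% of all genes. The part of this response in the values of the clock genes was not tested.

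Of the 7 glucocorticoid response genes, at day 1 and beside 42.1% of all genes, 2 rose, with Pdk4, which restrains pyruvate oxidation, at 4.74 ± 0.80 log2 units (adjusted p = 0.00055), and Tsc22d3, a glucocorticoid-induced leucine zipper gene, fell by 0.97 (SE 0.23, 0.00424). With only 1-digit replicates 5 rose and 1 fell (median 0.73), beside 61.3% of all genes, and with only 3-digit replicates of days 1 and 3 it was 1 and 2 (median -0.19), beside 42.9%. At day 3, 3 rose, beside 19.5% of all genes. From day 1 to day 3 edgeR called 0 of the 7 (2 at an unadjusted p under 0.05, and 0 by DESeq2), beside 15.9% of all genes. Errfi1, the other abundant member, was 640 to 822 CPM at day 0 and 365 to 1250 CPM at day 1. Between the formats at day 1 the values of all 7 were negative (median -0.95), and 3 were called lower in the 3-digit replicates, beside 16.4% of all genes, and 1, Pdk4, was lower at day 3, beside 8.22%.

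Cell type markers differed in part with the day. At day 1, where 23.3% of all genes rose and 18.7% fell, all 5 neutrophil, 8 of 9 tubular injury, 3 of 9 macrophage, 2 of 6 fibroblast and pericyte, 1 of 6 proliferation and 1 of 5 endothelial markers rose. In the same comparison 5 of 11 proximal tubule markers and 1 each of the kidney, macrophage and endothelial markers fell. At day 3, where 19.5% of all genes rose and 13.8% fell, all 5 neutrophil, 8 of 9 tubular injury, 4 of 9 macrophage, all 6 fibroblast and pericyte and all 6 proliferation markers rose. Of the others, 6 of 11 proximal tubule, 3 of 7 kidney and 1 of 9 macrophage markers fell, and edgeR called 0 of 5 endothelial markers (0 at an unadjusted p under 0.05 and 0 by DESeq2). Markers also differed between the formats, where of all genes 18.6% were higher and 16.4% lower in the 3-digit replicates at day 1, and 10.3% higher and 8.22% lower at day 3. Of 11 proximal tubule markers, 5 were lower in the 3-digit replicates, with a summed level of 38000 to 49800 CPM (1-digit) and 20400 to 31400 CPM (3-digit), against 46200 to 49700 CPM at day 0. At day 3, 4 of the 11 were higher in the 3-digit replicates. Of 6 fibroblast and pericyte markers, 4 were higher in the 3-digit replicates of day 1, at a sum of 301 to 428 CPM against 118 to 158 CPM. Of 9 tubular injury markers 2 were higher, of 9 macrophage markers 1 was higher, of 5 endothelial markers 1 was higher and 1 lower, and 0 of 5 neutrophil and 0 of 6 proliferation markers were called at day 1 by edgeR, by its unadjusted p under 0.05 or by DESeq2. At day 3, 5 of the 6 proliferation markers were higher in the 3-digit replicates, at a sum of 340 to 629 CPM against 99.3 to 123 CPM. In that comparison 4 of 9 macrophage markers were higher and 1 lower, and 3 of 5 endothelial, 2 of 6 fibroblast and pericyte and 1 of 9 tubular injury markers were lower. For the 5 neutrophil markers edgeR called 0 (2 at an unadjusted p under 0.05, and 0 by DESeq2). Of the 7 kidney markers, 3 were lower and 1 higher in the 3-digit replicates of day 1, and 1 was higher at day 3. The part of these cell types in the values of the clock genes was not tested.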

How the data were processed

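Bulk RNA sequencing of 14 mouse kidney libraries was analysed (day 0, n = 4; day 1 and day 3 after IRI, n = 5 each). Per the labels, RNA was isolated with TRIzol and the library kit was Illumina TruSeq. The submitters' processing notes name Trimmomatic, STAR and build mm10, with versions not given in the sources used here. The authors deposited the read counts per gene that STAR writes (reads mapped to 1 place), without strand and for each strand. The column with most strand-assigned reads was used. Reads that name no gene (29% to 38.3%) entered neither library sizes nor tests.

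Counts were tested with edgeR 4.0.16 under R 4.3.3 (with limma 3.58.1) by the quasi-likelihood test, after filterByExpr and TMM, with 1 term per day, or per day and number format, over all 14 libraries. Benjamini-Hochberg adjustment covered all genes tested, and a change is an adjusted p under 0.05. Standard errors come from the F value. Both fits were tested on simulated data. DESeq2 1.42.0, other scalings, filters and library sets were alternatives. No 2 replicates of a day were alike within counting noise (chi-square divided by its degrees of freedom 5.94 to 241 over 26 pairs). Promoter windows came from RefSeq.

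The clock genes, the lists (core partners, output, glucocorticoid response, immediate early and 8 cell type lists, from general knowledge) and the tests were chosen with earlier results of these data known. The text names all 10 members, the 2 most abundant members of the 4 gene lists, members called against most of their list, and the 5 genes most like Arntl and like Dbp. The values of 1 gene of these lists are not reported here.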

Additional observations from a re-analysis of the deposited data

Results flagged for a closer look

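In day 3 replicate 2, 2 clock genes were below the other day 3 libraries by a gap that was large for the range of that day. Clock was at 6.17 log2 CPM against 6.43 to 6.53, and Npas2 was at 1.10 against 2.46 to 2.65. The gap to the nearest library was tested in 33 groups of values, of which 2 were marked, where chance alone would mark 1.65.

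The difference between 3-digit and 1-digit libraries was itself different at day 3 and at day 1 for 4 clock genes (edgeR's quasi-likelihood test of the interaction). It was higher at day 3 by 1.24 log2 units for Per1, 1.09 for Per2, 2.32 for Nr1d1 and 3.50 for Ciart. Of the 14 fits that leave out 1 library, the call was lost in 8 for Per1, 6 for Per2 and 3 each for Nr1d1 and Ciart. Per1 and Per2 also lost it without TMM (adjusted p = 0.0574 and 0.0619).

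Reads on the strand opposite to Nr1d1, which the comparisons do not use, numbered 76 to 160 in each library, with the highest of 160 in day 0 replicate 4. Thra lies there and overlaps Nr1d1 by 263 exon bases.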

How the results depend on the processing

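Of the log2 fold changes of the 10 clock genes under the alternatives, 1277 kept their direction and their side of the threshold, 62 lost a call, 47 gained one and 44 changed sign, none of the last a called value. The cause of the changes below was not tested.

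At day 3 against day 0, where 1 clock gene was called, the count was 0 with unstranded counts, 2 without TMM, 3 by DESeq2's Wald test, 5 with only the libraries compared, 5 with the number format as a term, and 5 and 3 with only 1-digit or only 3-digit libraries. At day 3 against day 1 (3 called) it was 5 by DESeq2, 1 with a log2 fold change of at least 1, and 6 and 1 with only 1-digit or only 3-digit libraries. Between the formats at day 3 (2 called) it was 1 with that fold change and 0 with only day 3 libraries. For the difference of the format effect (4 called) it was 2 without TMM. Nr1d1 at day 3 against day 1 was not called with only the libraries compared (adjusted p = 0.0508), and without TMM Clock was called higher in 3-digit libraries at day 1 (0.50, adjusted p = 0.0221).

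Leaving out each library in turn gave 0 to 3 calls at day 3 against day 0 and 3 to 6 at day 3 against day 1. It gave 0 to 3 calls between the formats at day 3 and 0 to 4 for the difference of the format effect. The positive arm minus the E-box arm was -0.54 at day 3 in 1-digit libraries with unstranded counts. By Arntl minus Dbp alone it was 0.71 at day 0, -2.47 in the 3-digit libraries of day 1 and -0.76 in the 1-digit libraries of day 3.

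Sign changes at day 3 against day 0 concerned Clock, at 0.00 with RLE size factors, by DESeq2 or with only the libraries compared, -0.03 with no filter, -0.05 with the format as a term and -0.02 with only 3-digit libraries. For Npas2 at day 3 against day 1, the value was 0.08 without TMM, 0.02 with the format as a term and 0.21 with only 3-digit libraries. In the same comparison with only 3-digit libraries, Per1 was at 0.13, Nr1d2 at 0.33 and Ciart at 1.13, and with only 1-digit libraries Per2 was at -0.30. Between the formats at day 3, Per2 was at 0.00 with unstranded counts, 0.02 without TMM and 0.01 with no filter, with at least 10 counts in every library or with only the libraries compared, and Dbp was at -0.02 with unstranded counts.

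Leaving out each library in turn changed the sign of these uncalled log2 fold changes. At day 3 against day 0 Clock ranged from -0.05 to 0.10. At day 3 against day 1 Per2 ranged from -0.08 to 0.31 and Npas2 from -0.20 to 0.15. Comparing the formats at day 3, Per2 ranged from -0.21 to 0.20, Clock from -0.15 to 0.02, Npas2 from -0.53 to 0.05, Dbp from -0.32 to 0.47, Per3 from -0.37 to 0.21 and Nr1d2 from -0.38 to 0.12. For the difference of the format effect Arntl ranged from -0.07 to 0.77. The arm difference of the 3-digit libraries of day 3 ranged from -1.06 to 0.08, the latter without day 3 replicate 2.

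The replicate numbers did not pair the libraries, since 4 of 13 pairs of libraries with the same number had a correlation over 0.1 (range -0.17 to 0.26). With a replicate block, 2 members in place of 1 were called at day 3 against day 0, the added one being Arntl (-1.15, adjusted p = 0.0191). Nr1d2 was not called at day 1 (0.76, adjusted p = 0.104), and the block changed no other call of a member. Depth limits Ciart most, with 11 to 28 reads in each day 0 library.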
